A study of Homo sapiens with 4 samples.

Results

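The sites described here are adenosines that were almost fully methylated in untreated HEK293T cells. A site entered the set if it was in a named gene, had at least 50 reads in every library and appeared in all 4 lists, with an N6-methyladenosine (m6A) level of no less than 95% in both control libraries. There were 2338 such sites, which is 4.54% of the 51479 sites in named genes with that many reads. They lay in 1496 of the 8925 genes that hold those sites. HEK293T is a human embryonic kidney cell line. The groups were 2 libraries of cells given ascorbic acid (vitamin C) for 36 h, with the medium changed every 6 h, and 2 libraries of control cells. Both were labelled as the wild-type line, were grown from the same seeding step of 24 h before treatment, and gave 300 ng of mRNA per library. The sources used here give no dose of ascorbic acid. They record a medium change for the treated cells only, so its effect and that of ascorbic acid cannot be told apart. The labels do not say whether the 2 libraries of a group came from separate cultures, so every p-value covers no more than the spread between these libraries.

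m6A is set on newly made RNA by a METTL3 and METTL14 methyltransferase complex, mostly in a short sequence context called DRACH, and is removed by FTO and ALKBH5. These erasers belong to the iron and 2-oxoglutarate dioxygenases, a family for which ascorbate is a known reducing cofactor. GLORI measures the mark base by base: glyoxal and nitrite deaminate unmethylated adenosine, so that it appears as G in the reads, and m6A resists and appears as A. Levels are given as A reads in percent of A plus G reads, and a site near 100% is one where nearly every sequenced molecule was protected.

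The authors' lists held 135205 and 143518 sites with 25146378 and 26816350 A plus G reads in the ascorbic acid libraries, against 132989 and 144171 sites with 22592887 and 28562744 reads in the control libraries. The chosen sites had a median of 154 and 175 reads with ascorbic acid and of 149 and 162 in control. Of the 6 genes fixed as markers of the cell line, VIM, KRT18, NEFM and NEFL had a gene coverage in all 4 libraries, while KRT8 and PAX2 and all 8 markers of other cell types had no site listed in all 4.

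The bases around a site could be read where it fell in a RefSeq window (GRCh38.p14) around a gene start or in a miRNA hairpin, since no genome was used here. This held for 11 of the chosen sites, 9 of them with 12 bases on each side. The 7 below are printed because they show the motif at the methylated base; the 5 bases centred on the measured A are in capitals, on the strand of the RNA, 5′ to 3′, and U is written as T.
CCDC142, chr2:74472887-74472911, minus strand: tcgtatgagaGGACTattcatgata
ALG11, chr13:52024453-52024477, plus strand: ttttatttatGGACTtgttggttct
UQCC3, chr11:62672270-62672294, plus strand: cccaaaccctGGACTgactgcttta
TLNRD1, chr15:81001918-81001942, plus strand: ccagcagaagGGACTttcctggcag
SEMA6A, chr5:116447289-116447313, minus strand: tgattcccacGGACCtgcccctgcg
SEMA6A, chr5:116447325-116447349, minus strand: cctgcacaaaGGACAtgccccccat
FAM89A, chr1:231019830-231019854, minus strand: gggagggatgTGACTgttgggaagc

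The measured base was A at all 11 sites and the 5 bases formed a DRACH at all 11 (A, G or T; A or G; A; C; A, C or T), with GGACT at 7. In the same windows a DRACH was present at 35 of 41 listed sites (85.4%) with a control level between 80% and 95%, at 76 of 145 (52.4%) between 50% and 80%, and at 214 of 1110 (19.3%) between 10% and 50%. Over all 35116 windows of 300 bases around gene starts, 99.8% held a DRACH and 44.2% held GGACT on either strand, and 7.30% of the A bases stood in a DRACH. The motif count thus rests on few sites, all in gene-start windows or miRNA hairpins. Of the sites printed above, CCDC142 had 75.4% and 74.2% m6A with ascorbic acid, against 96.9% and 99.5% in control. TLNRD1 had 93.6% and 94.3% with ascorbic acid, against 98.9% and 100% in control. Both carry GGACT and both were almost fully methylated in control, yet their levels with ascorbic acid lay far apart.

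With ascorbic acid, most of the 2338 sites were no longer almost fully methylated. The median level was 91.3% and 91.2% in the ascorbic acid libraries, against 97.8% and 98% in the control libraries. The interquartile range ran from 85.9% to 95.0% and from 85.5% to 94.7% with ascorbic acid, and from 96.6% to 98.9% and from 96.8% to 98.9% in control. The lowest level was 54.4% in ascorbic acid 1 and 57.0% in ascorbic acid 2, at different sites, whereas in control the rule sets a floor of 95%. Because the control levels chose the sites, these values and the differences that follow are a description, with no test.

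**Figure D1:**
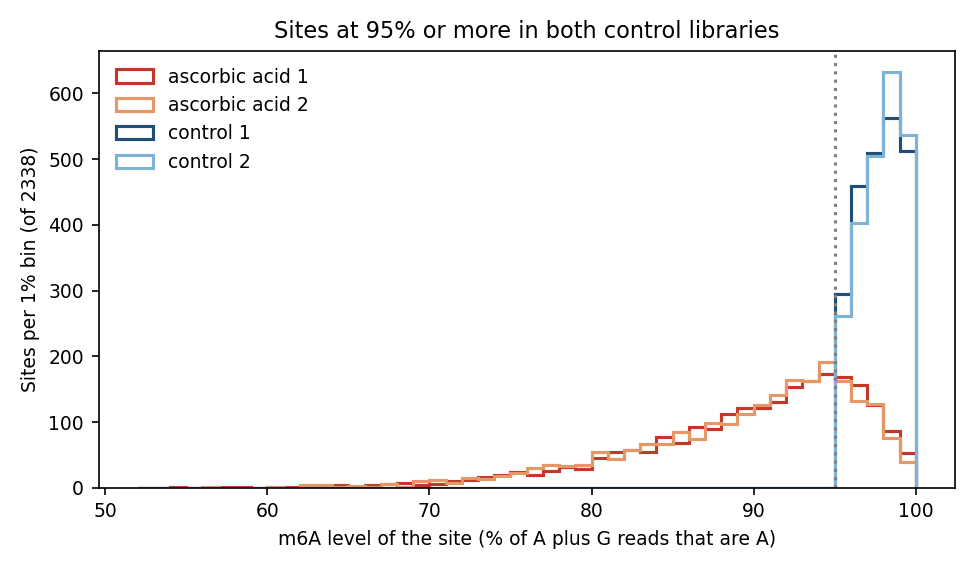
Number of sites (vertical axis) in each 1% bin of m6A level (horizontal axis, percent of A plus G reads that are A) for the 2338 sites, in 4 outlines: 2 ascorbic acid and 2 control libraries. The dotted line is the 95% threshold, which bounds the control outlines by construction; 589 and 538 sites lie at or above it in the ascorbic acid libraries.

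The change can also be counted in unprotected reads. Pooled over the sites, G reads made up 10.3% (64669 of 630396) and 10.4% (73281 of 703042) of reads with ascorbic acid, against 2.31% (14242 of 615793) and 2.21% (15467 of 699284) in control. The group means were 10.3% ± 0.117 with ascorbic acid and 2.26% ± 0.0714 in control (SD, n = 2 each), a ratio of 4.57. The ascorbic acid libraries differed little from each other beside the difference between the groups. The rule limits the G share of every site in both control libraries, which holds down the control mean and SD. The small control spread is therefore no support for the ratio, which describes the chosen sites only. The authors' own estimate of A left unconverted in these genes had a median of 4.07% and 4.22% with ascorbic acid, against 3.98% and 5.45% in control.

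The loss was uneven from site to site. In both ascorbic acid libraries 393 sites (16.8%) still stood at 95% or more, 341 did so in 1 of them, and 1604 (68.6%) lay below 95% in both. At the other end 170 sites (7.27%) were below 80% in both ascorbic acid libraries, and 22 were below 70% in both. A level of exactly 100% was read at 29 and 22 sites with ascorbic acid, against 262 and 243 sites in control.

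Averaged over the libraries, 2306 sites had a lower level with ascorbic acid, 30 a higher one and 2 the same. The groups did not overlap at 2155 sites (92.2%) with ascorbic acid on the lower side, where 55.4% of all 78509 sites tested did so, and at 8 sites with ascorbic acid on the higher side, where 4.22% of all sites did so. The quasi-likelihood test of edgeR on the A and G counts, fitted and adjusted by Benjamini-Hochberg over all 78509 sites at a threshold of 0.05, called 1748 sites (74.8%) lower and 0 higher, with 25.7% of all tested sites called lower and 0.22% called higher. At an unadjusted p under 0.05 the same test had 2 sites higher, and limma and DESeq2 had 0. The threshold of the rule favours falls, so nothing is read from these counts. The counts also depend on the tool: limma on log2 odds called 1033 of the sites lower, with 13.0% of all tested sites called lower, and DESeq2 called 1319, with 12.4% of all.

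To measure the loss against a control library that had no part in the choice, sites were chosen on 1 control library and measured in the other. The choice was still made in the control group, so a shift shared by both control libraries at a site would remain. Choosing on control 1 gave 2783 sites with medians of 90.2% and 90.1% in the ascorbic acid libraries, against 97.6% in control 2. Choosing on control 2 gave 2908 sites with medians of 89.9% and 89.8% in the ascorbic acid libraries, against 97.2% in control 1. The median difference was -7.03 points in the first choice and -7.05 points in the second, beside -6.60 points for the 2338 sites chosen on both. These sets are not alike, because a choice on 1 control library also admits sites below 95% in the other. Of the sites chosen on control 1, 21.8% and 20.1% reached 95% in the ascorbic acid libraries, against 84.0% in control 2. Chosen on control 2, the shares were 20.7% and 19.1% with ascorbic acid, against 80.4% in control 1.

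These differences could be tested, because the choosing library was left out of the fit. Without control 1, edgeR's quasi-likelihood test called 1668 of the 2783 sites (59.9%) lower and 0 higher, where 21.6% of all sites were called lower and 0.0459% higher in the same fit. Without control 2, it called 1628 of the 2908 sites (56.0%) lower and 0 higher, where 17.2% of all sites were called lower and 0.301% higher. Each fit sets 2 ascorbic acid libraries against 1 control library, which is assumed to vary like the others. The unused control library had medians of 97.6% and 97.2%, so these sites had little room to rise. Nothing is therefore read from the lack of sites called higher. Both ascorbic acid libraries lay below the unused control library at 93.6% of the sites in the first choice and at 92.7% in the second. Turning the choice round, 405 sites had at least 95% in both ascorbic acid libraries, and 393 of them also had it in both control libraries.

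How large the loss looks depends on the scale. In bins of control 1, the median difference between the ascorbic acid mean and control 2 was -2.29 points for sites at 10% to 20%, -10.3 points at 70% to 80%, -11.5 points at 80% to 90% and at 90% to 95%, and -7.03 points at 95% to 100%. In points, therefore, almost fully methylated sites lost less than those just below them. As log2 odds of A over G (0.5 added to each), the same bins gave -0.26, -0.73, -1.07, -1.62 and -2.08, so on that scale the highest bin moved most. Sites listed in all 4 libraries cannot have fallen under the 10% limit of the authors' lists, which bounds the difference in the lowest bin.

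**Figure D2:**
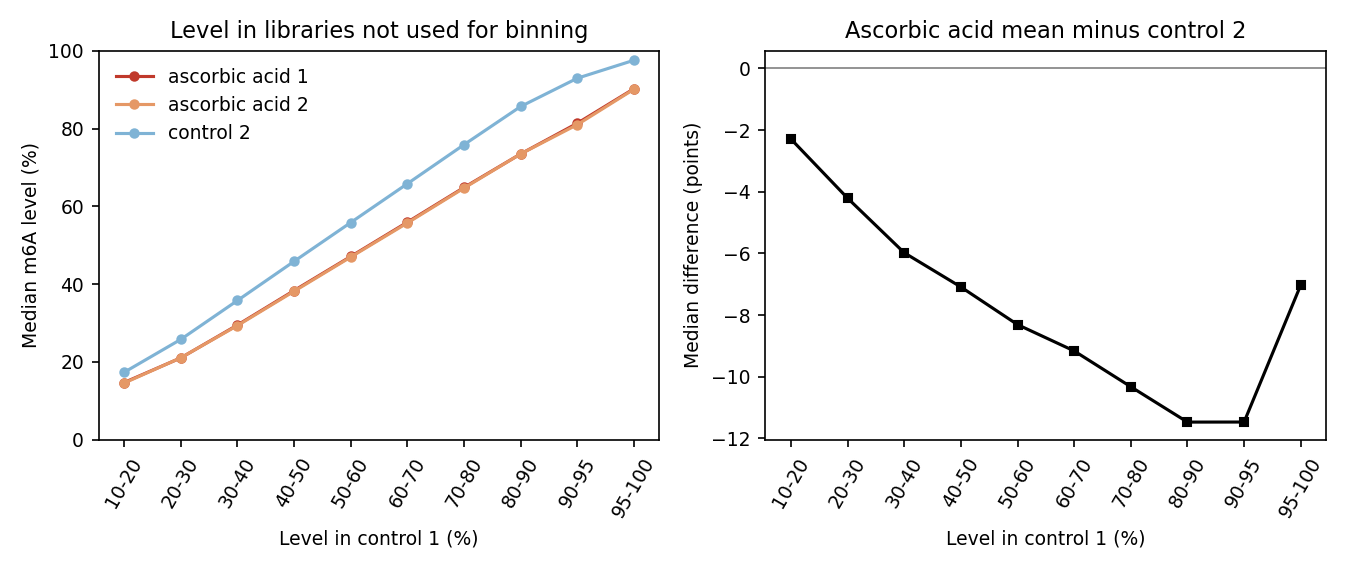
Sites in named genes grouped by their level in control 1 (horizontal axes, percent). The left panel shows the median m6A level (percent) in the 2 ascorbic acid libraries and in control 2, which did not set the bins; the right panel shows the median of the ascorbic acid mean minus control 2 in points, which is -11.5 in the bins from 80% to 95% and -7.03 in the top bin.

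The 2 ascorbic acid libraries gave nearly the same order of sites. The median difference between the ascorbic acid libraries at a site was 1.93 points, against 0.866 points between the control libraries. Set against counting error, for which the value is 1, the mean chi-square of the 2 ascorbic acid libraries per site was 1.10. The control value was 0.849, but there the rule itself limits the gap between the libraries, so it is not comparable with 1. Across the sites the levels of the 2 ascorbic acid libraries had a Spearman correlation of 0.844, and those of the control libraries, confined to the narrow range above 95%, of 0.482. Depth and level were not ordered together, as the smallest read count of a site and its mean level with ascorbic acid had a correlation of 0.00535 over 2338 sites that share libraries and, in part, genes.

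The level with ascorbic acid differed with gene span, the distance between the annotated ends of a gene in RefSeq. In genes under 5 kb (346 sites) the median was 94.4% and 94.2% with ascorbic acid, against 98.2% and 98.4% in control. In genes of 50 to 100 kb (331 sites) it was 88.2% and 88.3% with ascorbic acid, against 97.4% and 97.6% in control. The classes between them followed in order, at 93.9% and 93.3% with ascorbic acid for 5 to 10 kb, 91.1% and 91.4% for 10 to 20 kb and 90.1% and 89.7% for 20 to 50 kb. Genes of 100 kb or more, at 89.0% and 89.2%, were not lower than the class before them. The share of sites still at 95% or more in both ascorbic acid libraries was 32.9% under 5 kb, 29.0% at 5 to 10 kb, 15.0% at 10 to 20 kb, 9.79% at 20 to 50 kb, 8.76% at 50 to 100 kb and 8.67% from 100 kb.

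**Figure D3:**
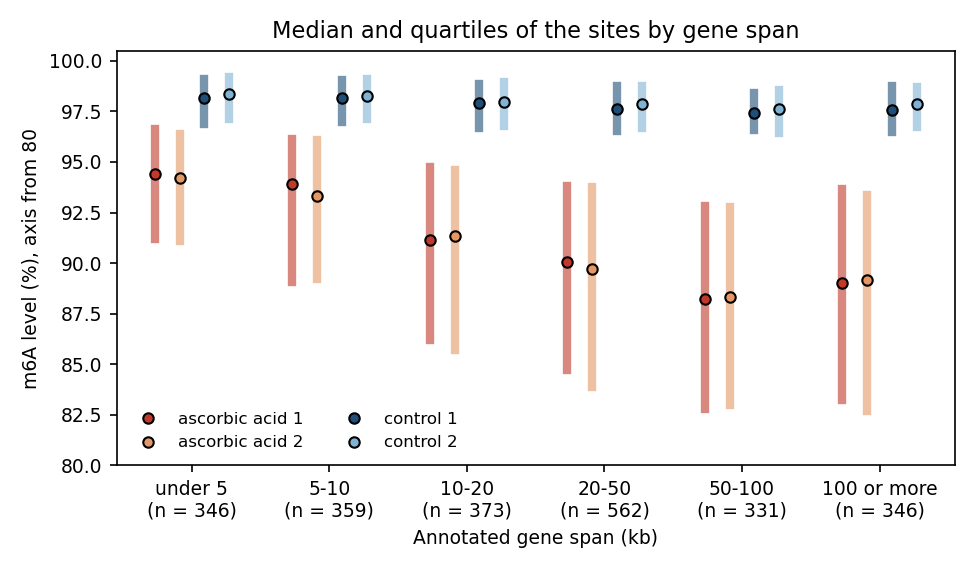
m6A level (percent, axis from 80) of the sites in 6 classes of annotated gene span in kb, with the number of sites under each. Points are medians and bars the quartiles, for 2 ascorbic acid libraries on the left of each class and 2 control libraries on the right; the ascorbic acid medians are 94.4% and 94.2% under 5 kb and 88.2% and 88.3% at 50 to 100 kb, while the control medians stay between 97.4% and 98.4%.

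The control levels had a small gap of the same direction, so the contrast was repeated among sites with a control mean of at least 98%. There the medians with ascorbic acid were 95.6% and 95.3% in genes under 10 kb (390 sites), 93.7% and 93.6% at 10 to 50 kb (408 sites) and 92.0% and 92.4% from 50 kb (254 sites). It was also taken at fixed distance from the 3′ end. Between 1000 and 5000 nt from it, the medians were 94.2% and 93.8% in genes under 10 kb, 91.6% and 91.6% at 10 to 50 kb and 89.6% and 89.5% from 50 kb. The order was the same within 1000 nt and at 5000 to 20000 nt. From 20000 nt it ran the other way, with 85.8% and 84.98% at 10 to 50 kb (80 sites) and 87.0% and 86.6% from 50 kb (169 sites).

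The ordering by span was not limited to the almost fully methylated sites. Among sites with a control level of 80% to 95%, the median difference was -6.60 points in genes under 10 kb, -12.5 points at 10 to 50 kb and -14.4 points from 50 kb. For the 2338 sites the same 3 classes gave -4.03, -7.51 and -9.00 points.

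The share of A that the authors list as unconverted in a gene moved with span. Its median over the sites with ascorbic acid was 4.94% in genes under 10 kb and 3.62% in genes of 50 kb or more, and in control it was 5.51% and 4.16%. Among sites in genes at or below the median unconverted share, the medians with ascorbic acid were 91.6% and 91.6% under 10 kb (159 sites), 88.9% and 88.4% at 10 to 50 kb and 87.7% and 87.7% from 50 kb (490 sites). Above that median they were 94.5% and 94.3%, 92.4% and 92.1%, and 91.2% and 90.2%. The order was thus the same on both sides of the split, with levels higher throughout where the unconverted share was higher. Over the sites the level with ascorbic acid had a Spearman correlation of -0.319 with span (2317 sites), 0.383 with the unconverted share and 0.568 with the control level (2338 sites). Sites of a gene share 1 span and 1 unconverted share, and the part of the latter in the contrast was not tested further.

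Position along the gene gave a weaker ordering. The medians with ascorbic acid were 91.6% and 91.2% within 1000 nt of the annotated 3′ end (426 sites), 92.2% and 92.1% at 1000 to 5000 nt (1247 sites), 90.4% and 90.05% at 5000 to 20000 nt and 86.8% and 86.2% from 20000 nt (249 sites). In control they were 97.7% and 97.9%, 98% and 98.1%, 97.8% and 98.1%, and 97.1% and 97.4%. Over all spans, sites far from the 3′ end therefore had the lowest level with ascorbic acid, and the first 2 classes hardly differed. Within classes of gene span this held only in part. At spans of 10000 to 50000 nt those 2 had 88.3% and 87.7%, against 91.6% and 91.6%, with 85.8% and 84.98% in the farthest class. At 50000 nt or more those 2 had 87.2% and 84.8% (54 sites), against 89.6% and 89.5%, with 87.0% and 86.6% in the farthest class. Under 10000 nt those 2 had 93.7% and 93.6%, against 94.2% and 93.8%, with 95.3% and 94.7% at 5000 to 20000 nt (54 sites). At that span the level thus did not fall with distance.

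The sites themselves were placed differently from less methylated ones. Of the sites with a known distance, 53.9% lay 1000 to 5000 nt from the annotated 3′ end of the gene, against 43.1% of sites with a control level of 80% to 95% and 41.5% of sites at 10% to 50%. A share of 18.4% lay within 1000 nt, against 23.0% and 27.4% in those classes. Genes under 10 kb held 30.4% of the sites, against 21.6% and 21.5%. Sites with no other site listed in all 4 libraries within 200 nt were rarely almost fully methylated, at 1.09% (87 of 8005). With the nearest such site at 51 to 200 nt the share was 5.26% (925 of 17583). It was 5.59% at 11 to 50 nt (1116 of 19978) and 3.55% within 10 nt (210 of 5913). The positions are distances on the genome, so exons, introns and untranslated regions were not told apart.

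By gene type, 2232 sites were in protein-coding genes, 37 in pseudogenes, 31 in long noncoding RNAs and 16 in transcribed pseudogenes, with 1 of another type and 21 in names that matched no RefSeq gene. Protein-coding sites had medians of 91.3% and 91.2% with ascorbic acid, against 97.8% and 98% in control. Long noncoding RNA sites had 90.9% and 90.7%, against 98.1% and 98.1%, which is within 1 point of the coding sites. The 16 sites in transcribed pseudogenes had 86.8% and 87.1%, against 97.3% and 96.8%, and 0 of them stayed at 95% in both ascorbic acid libraries. Reads of pseudogenes can be shared with the parent gene, and the sources used here do not say how they were assigned.

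The lowest levels with ascorbic acid were in genes of several functions. PRAME (chr22:22549981), a tumour antigen, had 54.4% and 62.2% m6A with ascorbic acid, against 96.6% and 95.6% in control. TAF1C (chr16:84178783), a subunit of the RNA polymerase I selectivity factor, had 61.4% and 57.0%, against 95.8% and 98%. CYHR1 (chr8:144450292, ZFTRAF1 in RefSeq) had 58.1% and 60.7%, against 95.2% and 95.0%. At each of the 3 sites the ascorbic acid libraries lay more than 30 points below the control libraries, on 50 to 125 reads per library.

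SUV39H1 (chrX:48700479), a histone H3 lysine methyltransferase of heterochromatin, had 60.1% and 63.1% with ascorbic acid, against 95.6% and 95.1% in control, on 270 to 363 reads. GRB10 (chr7:50592792), an adaptor protein that binds the insulin receptor, had 64.6% and 63.4%, against 96.5% and 95.8%, on 280 to 333 reads. RXRA (chr9:134436609), the retinoid X receptor alpha, had 60.4% and 69.1%, against 97.2% and 96.6%. These were the deepest of the 10 lowest sites, with differences of -33.8, -32.1 and -32.2 points, and in each the groups were far apart. NLRX1, TNRC18, LINC01000 and TGFB1, the remaining sites of the 10, had mean levels of 63.1% to 65.4% with ascorbic acid and of 96.6% to 97.1% in control.

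The deepest sites that kept at least 95% in all 4 libraries were mostly in short genes. HNRNPA0 (chr5:137752947), an RNA-binding protein of the heterogeneous nuclear ribonucleoproteins, had 96.4% and 96.1% with ascorbic acid, against 99.0% and 98.8% in control, on 4922 to 5724 reads. JUN (chr1:58781894), a subunit of the transcription factor AP-1, had 98.9% and 98.3%, against 99.5% and 99.4%. ZNF503 (chr10:75399761), a zinc finger regulator of transcription, had 96.0% and 96.2%, against 96.9% and 96.9% on 1867 to 2876 reads. Even at these sites the ascorbic acid libraries were the lower ones, with differences of -0.822 points in JUN, -0.85 in ZNF503 and -2.7 in HNRNPA0.

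HSPA1B (chr6:31829777), an inducible heat shock protein of the Hsp70 family, had 97.9% and 98.4% with ascorbic acid, against 99.9% and 99.7% in control. A deeper chosen site of HSPA1B, chr6:31829931, had 94.6% and 94.2%, against 97.0% and 97.1%, on 8011 to 14171 reads. The share of A listed as unconverted in HSPA1B was 9.03% with ascorbic acid and 10.1% in control. The medians of that share over the set were 4.15% and 4.70%. The near copy HSPA1A may share reads with HSPA1B. XBP1 (chr22:28795293), a transcription factor of the unfolded protein response, had 96.8% and 97.3%, against 99.3% and 99.5%. FEN1 (chr11:61795903), a flap endonuclease of DNA replication, had 97.3% and 95.4%, against 99.8% and 99.0%, with another listed site 6 nt away. JAGN1, UBL4A, RBM12 and TMEM115 completed the 10, with differences of -1.84 to -2.87 points. At all 10 sites the higher ascorbic acid library was still below the lower control library. The same held at 92.2% of all the chosen sites and at 55.4% of all sites tested. The rule favours it, so nothing is read from this count. Of the 10 genes, 8 span under 10 kb; RBM12 spans 15976 nt and ZNF503 122192 nt.

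**Figure D4:**
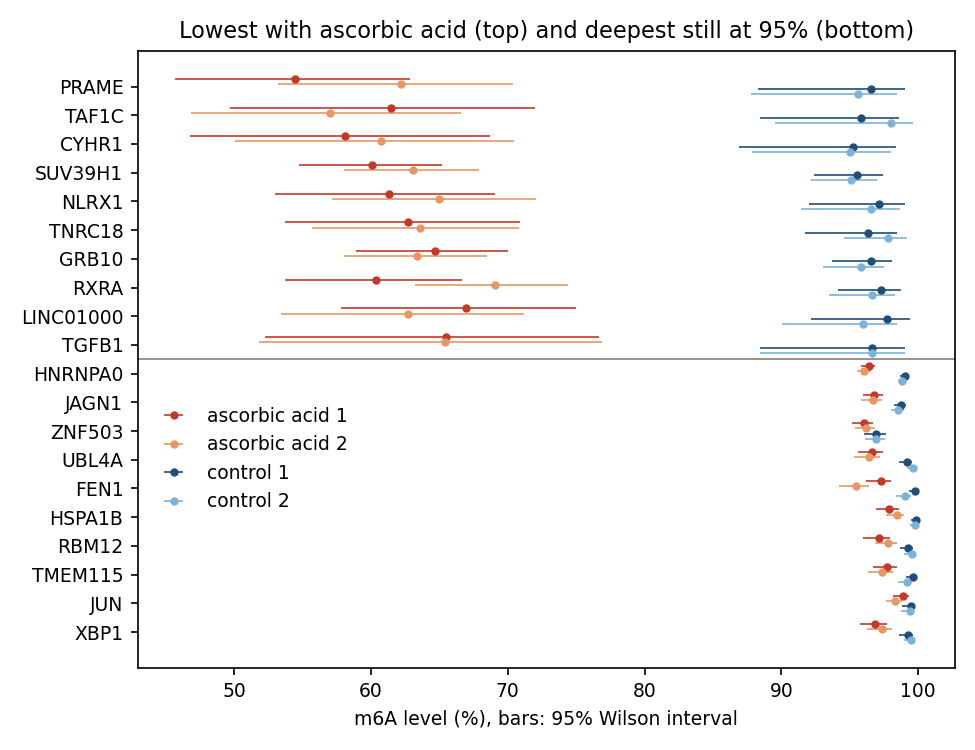
m6A level (percent, horizontal axis) of the 10 sites with the lowest mean with ascorbic acid (upper rows) and the 10 deepest sites at 95% or more in all libraries (lower rows). Points are libraries, ascorbic acid above control in each row, and bars are 95% Wilson intervals, which cover counting error only; PRAME reads 54.4% and 62.2% with ascorbic acid, against 96.6% and 95.6% in control, and JUN 98.9% and 98.3%, against 99.5% and 99.4%.

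The 5 sites with the largest gap between the ascorbic acid libraries show how far a single site can vary. JMY (chr5:79237343) had 76.3% and 95.2% with ascorbic acid, against 96.3% and 98.6% in control, on 54 to 83 reads. GPRC5B (chr16:19872250) had 87.6% and 69.2%, against 97.1% and 97.1%. TRO, DOP1A and CCDC57 had SDs of 10.99 to 13.05 points between the ascorbic acid libraries. In all 5 the groups still did not overlap, with ascorbic acid lower, as at 92.2% of all the chosen sites and 55.4% of all sites tested. At the threshold of the rule, the sites just inside had mean levels of 74.4% (PRR12), 68.6% (TOM1L2) and 82.3% (NDOR1) with ascorbic acid and of 95.3%, 97.0% and 95.0% in control, and those just outside had 72.5% (IRS4), 94.6% (FEM1A) and 86.0% (ALKBH4), against 95.4%, 95.9% and 95.1%.

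Sites of 1 gene resembled each other in part. Of the 1496 genes, 982 held 1 such site, 514 held at least 2, 207 at least 3 and 31 at least 5. The range of the ascorbic acid means within a gene had a median of 4.96 points over the 514 genes, beside an interquartile range of 8.72 points over all sites, and the intraclass correlation was 0.443. Of the 207 genes with at least 3 sites, 13 had every site at a mean of 95% or more with ascorbic acid and 16 had every site below 90%. The first 13, with a median span of 4110 nt, include HNRNPA0, with 5 sites between 95.5% and 97.2%, and JUN, with 3 sites between 96.0% and 98.6%. IRF2BPL, a transcriptional regulator, had 4 sites between 96.9% and 99.5%, and FADD, the adaptor of death receptors, 3 sites between 96.9% and 98.7%. Among the other 16, with a median span of 29514.5 nt, were FAT1, a cadherin, with 3 sites between 77.5% and 84.9%, NUFIP2 with 5 sites between 79.2% and 88.3%, and RIPK1, a kinase of death receptor signalling, with 3 sites between 78.8% and 85.6%. Apart from HNRNPA0 and JUN these genes were picked after their values were seen.

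The 5 genes taken as those with the most sites were C15orf39 (8), AP5B1, RTL6 and ZNF526 (7 each) and ARID1A (6). DCLRE1B, GEMIN4, GTF3C4, HPS6 and SKI also held 6, and ARID1A was taken as the first by symbol. AP5B1, a subunit of an adaptor complex of late endosomes, had mean levels of 94.2% to 98.2% over its 7 sites with ascorbic acid and of 96.0% to 100% in control. Its differences all lay between -3.59 and -0.395 points, and that of chr11:65778679 was 0.587 without control 2 and -1.38 without control 1. RTL6, a gene derived from a retrotransposon, had 93.4% to 98.9% with ascorbic acid and 96.9% to 99.7% in control. In both genes no site had a difference beyond -5.87 points.

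C15orf39 showed that neighbouring sites can part. Its site at chr15:75208768 had 74.4% and 76.3% with ascorbic acid, against 96.0% and 97.0% in control, whereas the next of its sites upstream, at chr15:75208468, had 95.9% and 97.1%, against 98.5% and 99.0%. The other 6 sites had differences of -6.90 to -1.92 points. ZNF526 also had a wide range. Its site at chr19:42226267 had 81.4% and 78.5% with ascorbic acid, against 98.5% and 98.4% in control. The nearest of its other sites, chr19:42226201, was also lower, at 89.3% and 88.4%, against 98.7% and 98.8%. At chr19:42226841 the levels were 98.3% and 97.5%, against 99.1% and 99.7%. ARID1A, a subunit of the SWI/SNF chromatin remodelling complex, had differences from -17.0 points at chr1:26780584 to -1.63 points at chr1:26780050. In these 3 genes the spread between sites was thus larger than that between libraries.

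**Figure D5:**
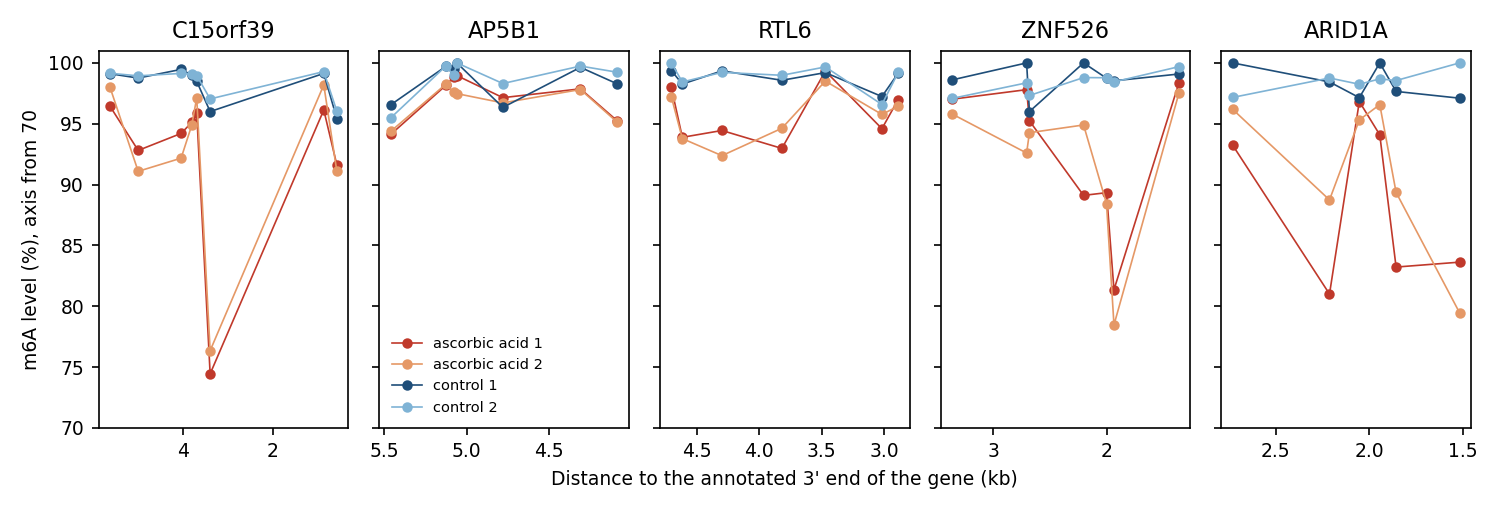
m6A level (percent, axis from 70) of every chosen site in the 5 genes with the most such sites, ties taken by symbol. The horizontal axis is the distance in kb from the 3′ end that RefSeq gives the gene and falls from left to right. Lines join the sites of a library, 2 for ascorbic acid and 2 for control; C15orf39 dips to 74.4% and 76.3% with ascorbic acid at 1 site, where the control libraries read 96.0% and 97.0%.

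Among genes of the m6A machinery, 5 of 25 measured genes held 15 of the sites (5.66% of their 265 sites, beside 4.54% over all named genes). They were the readers YTHDF1, YTHDF2 and YTHDF3, which bind m6A in the cytoplasm, and RBM15 and RBM15B, which guide the methyltransferase complex. For a gene of these lists with several of the sites, the deepest is given. YTHDF2 (chr1:28742771, the deepest of 3) had 89.7% and 90.7% with ascorbic acid, against 98.9% and 98.3% in control. RBM15 (chr1:110340316, the deepest of 3) had 84.2% and 82.0%, against 95.7% and 96.2%, and RBM15B (chr3:51392677) 93.8% and 92.9%, against 95.9% and 95.4%. The RBM15B site is the deepest and lowest of 5, whose means ran from 93.3% to 96.3% with ascorbic acid. Of the 15 sites, 1 stayed at 95% in both ascorbic acid libraries. METTL3, METTL14, FTO and ALKBH5 held none of the sites.

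The iron and 2-oxoglutarate dioxygenases, the enzyme family that uses ascorbate, held 16 sites in 14 of 45 measured genes (4.79% of 334 sites). KDM4A, a histone lysine demethylase, had 86.7% and 83.8% at chr1:43704691 with ascorbic acid, against 96.2% and 97.1% in control. PLOD1, a lysyl hydroxylase of collagen, had 83.0% and 88.6% at chr1:11975301, against 97.5% and 97.8%. PHF8, another histone demethylase, had 95.8% and 94.4%, against 97.6% and 97.2%. None of the 16 stayed at 95% in both ascorbic acid libraries, beside 16.8% over all, and their median difference was -8.58 points, beside -6.60.

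Chromatin and transcription regulators held 43 sites in 19 of 59 measured genes, with a median difference of -8.54 points and 5 sites still at 95% in both ascorbic acid libraries. SETD5 (chr3:9475688), a SET domain protein, had 77.0% and 76.9% with ascorbic acid, against 97.4% and 96.0% in control. EP300 (chr22:41177880), a histone acetyltransferase, had 91.8% and 90.6%, against 98.4% and 98.8%. Genes named ZNF or ZBTB, which encode zinc finger proteins, held 134 sites in 77 of 200 measured genes. That is 8.68% of their 1544 sites, and their median difference was -5.14 points, with 28 sites still at 95% in both ascorbic acid libraries. Within that family ZNF598 (chr16:1998095), a ubiquitin ligase of stalled ribosomes, had 80.8% and 80.7%, against 97.5% and 97.9%.

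Transcripts often described with m6A held 17 sites in 8 of 20 measured genes, with a median difference of -4.01 points and 6 sites still at 95% in both ascorbic acid libraries. SRRM2 (chr16:2764476), a protein of nuclear speckles, had 86.4% and 85.9% with ascorbic acid, against 97.4% and 97.5% in control. SOX4 (chr6:21596345), a developmental transcription factor, had 91.4% and 91.1%, against 96.3% and 95.5%. Ribosomal protein genes held few of the sites, 6 of 406 (1.48%) in 6 of 104 measured genes, and 5 of these encode mitochondrial ribosomal proteins. MRPL43 (chr10:100986698) had 81.4% and 79.8%, against 96.3% and 97.8%, and none of the 6 stayed at 95% in both ascorbic acid libraries. The lists were chosen with results of these data known, so the counts describe them and support no contrast between them.

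The remaining sites of the same genes were also set beside sites elsewhere. The 21558 tested sites of the 1496 genes outside the set had medians of 36.4% and 36.2% with ascorbic acid, against 41.1% and 43.0% in control, and a median difference of -4.17 points. The 47582 tested sites of named genes without any almost fully methylated site had 31.1% and 31.2% with ascorbic acid, against 37.8% and 39.5% in control, and -5.38 points. edgeR's quasi-likelihood test called 4468 of the 21558 sites (20.7%) lower and 22 higher, against 27.7% called lower of the 47582. The count of 4468 was 2552 without ascorbic acid 2, 2841 without ascorbic acid 1 and 2766 without control 2, and the medians of read counts differed (105 and 83 in the shallowest library). Over 1446 genes with at least 3 other sites, the gene's mean change in log2 odds at its almost fully methylated sites and at its other sites had a Spearman correlation of 0.273.

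Transcript abundance was read from the authors' gene coverage, which the rule did not use. Of the 1496 genes, limma found 3 with higher coverage (0.201%) and 1 with lower coverage (0.0668%) with ascorbic acid, where 0.253% of all 11848 genes were higher and 0.0422% lower. The median log2 difference was -0.02 over the 1496 genes and -0.0011 over all genes, and 219 of the 1496 (14.6%) had an unadjusted p under 0.05, as did 14.4% of all genes. In bulk RNA, fewer cells that express a gene and less RNA per cell cannot be told apart. The other 1492 genes had no coverage difference past the threshold, and with 2 libraries a group a small one could be missed.

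PLAT, the tissue plasminogen activator, had a scaled coverage of 218 and 222 with ascorbic acid, against 152 and 149 in control (log2 difference 0.55, SE 0.055, limma adjusted p = 0.0286). LGALS3BP, a secreted galectin-binding glycoprotein, had 139 and 137, against 96.0 and 88.8 (0.58, SE 0.063, limma adjusted p = 0.0329). DUSP1, a phosphatase of MAP kinases, had 187 and 191, against 139 and 134 (0.47, SE 0.057, limma adjusted p = 0.0405). SP9, a transcription factor of the Sp family, fell to 37.4 and 38.4 with ascorbic acid, against 57.4 and 54.0 in control (-0.56, SE 0.065, limma adjusted p = 0.0363). The 4 genes are given because they passed the threshold, so the gap between their groups is no further support. Each held 1 site of the set, with a mean level with ascorbic acid of 72.2% in PLAT, 70.6% in LGALS3BP, 97.1% in DUSP1 and 97.2% in SP9. None of the 4 passed the limma threshold without ascorbic acid 1 or without ascorbic acid 2 (adjusted p of 0.0752 to 0.186), and DUSP1 had 0.0508 without control 2. Without control 1, the counts over the 1496 genes were 9 higher and 17 lower, where 1.99% of all genes were higher and 1.03% lower in the same fit.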

How the data were processed

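Per the labels' protocols, HEK293T mRNA was cut into fragments, treated with glyoxal and deaminated at 16 °C for 8 h. The tools named in the submitters' processing notes are Trimmomatic 0.39 and STAR, with hg38 and GRCh38 as builds; for the site caller and any removal of PCR duplicates, the sources used here give nothing. Each library came as 1 list of sites. Per the file headers, it holds A plus G and A read counts without scaling, the m6A level and the gene's conversion rate as fractions, gene coverage as a signal whose unit is not defined, and the authors' p-value per site. Every listed site has at least 15 reads, at least 5 of them A, and a level of at least 10%. Coordinates are the deposited ones.

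Levels were recomputed from the counts. The 78509 sites with at least 20 reads in every library were tested with edgeR 4.0.16 (quasi-likelihood; library terms plus treatment on the A to G odds), adjusted by Benjamini-Hochberg over all of them at 0.05, two-sided. Gene coverage was scaled per library (median ratio to the genes' geometric means) and tested with limma 3.58.1 (trended eBayes, log2). The tests were tested on simulated data. Gene spans, types and 3′ ends come from the RefSeq table (GRCh38.p14): of the 2338 sites, 2272 matched by symbol, 45 by synonym and 21 not, and 2314 of 2317 lay inside the matched span. Named sites are the 10 lowest with ascorbic acid and the 10 deepest at 95% in all libraries (1 site per gene). To these were added all sites of the 5 genes with most (ties by symbol) and the 5 with the largest gap between ascorbic acid libraries. The rest are 3 on each side of the threshold and up to 4 per list. For coverage, up to 5 rises and 5 falls are named. The sites, lists and tests were chosen with earlier results of these data known. Replicate numbers were not taken as pairs: the deviations of same-numbered libraries from their group means had correlations of -0.00535 over site log2 odds and -0.163 over log2 gene coverage. Other tools were R 4.3.3, DESeq2 1.42.0, Python 3.11.15, pandas 2.3.3, numpy 2.4.6, scipy 1.17.1 and matplotlib 3.10.9.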

Additional observations from a re-analysis of the deposited data

How the results depend on the processing

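The median difference of the sites, -6.60 points, was negative under all alternatives run. It was -8.45 points with a threshold of 90% in both control libraries (4488 sites), -4.31 at 98% (757 sites), -6.40 with at least 100 reads (1496 sites), -6.97 with at least 20, -7.03 and -7.05 when chosen on control 1 or control 2 alone, -7.26 with 1 site per gene (1496 sites), -6.92 after correction for the conversion rate, -1.82 for the 405 sites chosen on the ascorbic acid libraries, and -6.77 to -6.55 with each library left out. The share still at 95% in both ascorbic acid libraries, 16.8%, was 9.002% at 90%, 37.8% at 98%, 14.4% and 13.6% when chosen on 1 control library, 14.6% with 1 site per gene and 23.0% to 25.2% with an ascorbic acid library left out, which needs only 1 library to pass. The share 5000 nt or more from the 3′ end, 27.7%, was 30.6% at 90%, 24.1% at 98% and 25.2% with 100 reads. The 1748 sites called lower were 1033 with limma and 1338 to 1467 with a library left out, and the replicate block gave 1789. The 4468 other sites of the same genes called lower were 1999 with limma, 1938 with DESeq2 and 2552 to 3727 with a library left out. The gap in ascorbic acid level between genes under 10 kb and genes of 50 kb or more, 5.36 points, was 4.64 with 1 site per gene, 3.16 at a control mean of 98%, 4.28 at a low unconverted share, 4.06 at 1000 to 5000 nt from the 3′ end and 5.14 to 5.55 with a library left out; these alternatives were chosen after seeing the data. For gene coverage, total scaling gave 5 genes higher, the replicate block 5 higher and 2 lower, and leaving out a library 0 to 9 higher and 0 to 17 lower. A crossed pairing of the replicate numbers, added after seeing the data, gave 6 genes higher and 4 lower. The difference at AP5B1 chr11:65778679, -0.395 points, lay between -1.38 and 0.587 with each library left out. With 2 libraries a group, leaving 1 out moves a site's mean by no more than its spread, so those settings show no stability for single sites. Apart from the conversion correction, whose construction shifts levels, the cause of these moves was not tested.

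Sites under 50 reads, under 10% in any library or in no named gene were left out. The 2 libraries a group limit the precision of every value, and Wilson intervals cover counting error only, since PCR copies are not independent molecules. At a depth near 50 reads, 1 G read moves a level by about 2 points. The dose was not given, and exons and introns could not be told apart.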
